A study of Danio rerio with 6 samples.

Results

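Collagen genes were followed in messenger RNA from zebrafish (Danio rerio) trunks. They were every gene whose symbol is col, a number, a and a number, with an optional final letter, upper and lower case taken as equal. Genes with the same symbol apart from that letter are called copies here. By symbol alone this includes col7a1 and the col7a1l genes. The rule found 50 of the 24789 genes in the tables, from 21 collagen types, and 45 of them had enough reads to be tested. The name table holds 57 collagen IDs, and the other 7 were not analysed here.

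Collagens are secreted proteins in which 3 chains wind into a triple helix. Fibrillar collagens build the fibers of skin, tendon, cartilage and the notochord sheath. FACIT collagens sit on the surface of those fibers, and type IV collagen forms the sheet of every basement membrane. Types VII and XVII anchor the epidermis to what lies beneath it, and type VI forms beaded filaments around muscle fibers. In the zebrafish embryo the notochord sheath, the epidermis and the boundaries between muscle segments are known sites of collagen production.

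Embryos came from crosses of qkia+/- fish and were collected 24 to 26 h after fertilization, with head and yolk removed. Siblings that were qkia+/+ or qkia+/-, injected with a control morpholino, gave the 3 control libraries. Siblings that were qkia-/-, injected with a morpholino against qkic, gave the 3 loss of function libraries. Both morpholinos were given at 0.6 pmol at the 1-cell stage, embryos were sorted by their appearance, and the number of embryos in a library is not stated. Quaking proteins bind RNA, and the series set out to find targets of qkia and qkic. Genotype and morpholino changed together, so their effects cannot be told apart.

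The libraries held between 38804265 and 44799398 reads in genes. The mutated gene qkia (ENSDARG00000097478) had normalized read counts of 61.7, 81.9 and 58.9 in the controls and 5.98, 6.93 and 3.34 in loss of function (log2 change -3.45, SE 0.30, limma adjusted p = 1.93e-07). It passed the filter for testing, a value of 10, only through the control libraries. Skeletal muscle genes were abundant, as a trunk requires, with summed normalized counts between 1033601 and 1237460. The eye genes rx1 and rx2 were at or near 0, while OTX2 and DLX2 were detected. Controls differed from each other more than loss of function libraries did, with a chi-square per degree of freedom of 8.40 to 15.1 against 2.18 to 2.54. The labels call them biological triplicates, and p-values rest on the spread among these libraries.

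Collagen genes changed in both directions, mostly by less than a doubling. Of the 45 tested, 18 were higher in loss of function trunks, 10 were lower and 17 missed the threshold (limma, adjusted p under 0.05 over all 18917 genes tested). The 28 that passed are 62.2% of those tested, where 41.9% of all genes tested passed. By direction, 40.0% of collagen genes were higher and 22.2% lower, against 21.9% and 20.0% of all genes. The values of the groups did not overlap for 30 collagen genes (66.7%, against 52.1% of all genes). The median log2 change was -0.0025 for collagen genes and 0.00048 for all genes. Collagen genes had more reads than most, with a median level of 2699.9 normalized counts against 332 for all genes tested, and a test finds small changes more readily in genes with many reads. The largest increase was 0.83 and the largest decrease -1.08 on the log2 scale. A change of at least 0.5 was found in 7 members that passed, 3 higher and 4 lower (15.6%, against 13.3% of all genes). The 18 that rose had a median level of 11359 normalized counts and the 10 that fell one of 1982. Of 14 members with a level of at least 10000, 9 rose and 1 fell. The share of all genes at that level that rose or fell was not computed. COL1A2, COL11A1 and col9a1b, among these 9, were not called after quantile normalization. Also of the 14, col28a2a (log2 change -0.23, limma adjusted p = 0.00122) and col18a1a (-0.20, adjusted p = 0.00182) were then called lower. Both were called lower when scaled to total reads as well.

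**Figure D1:**
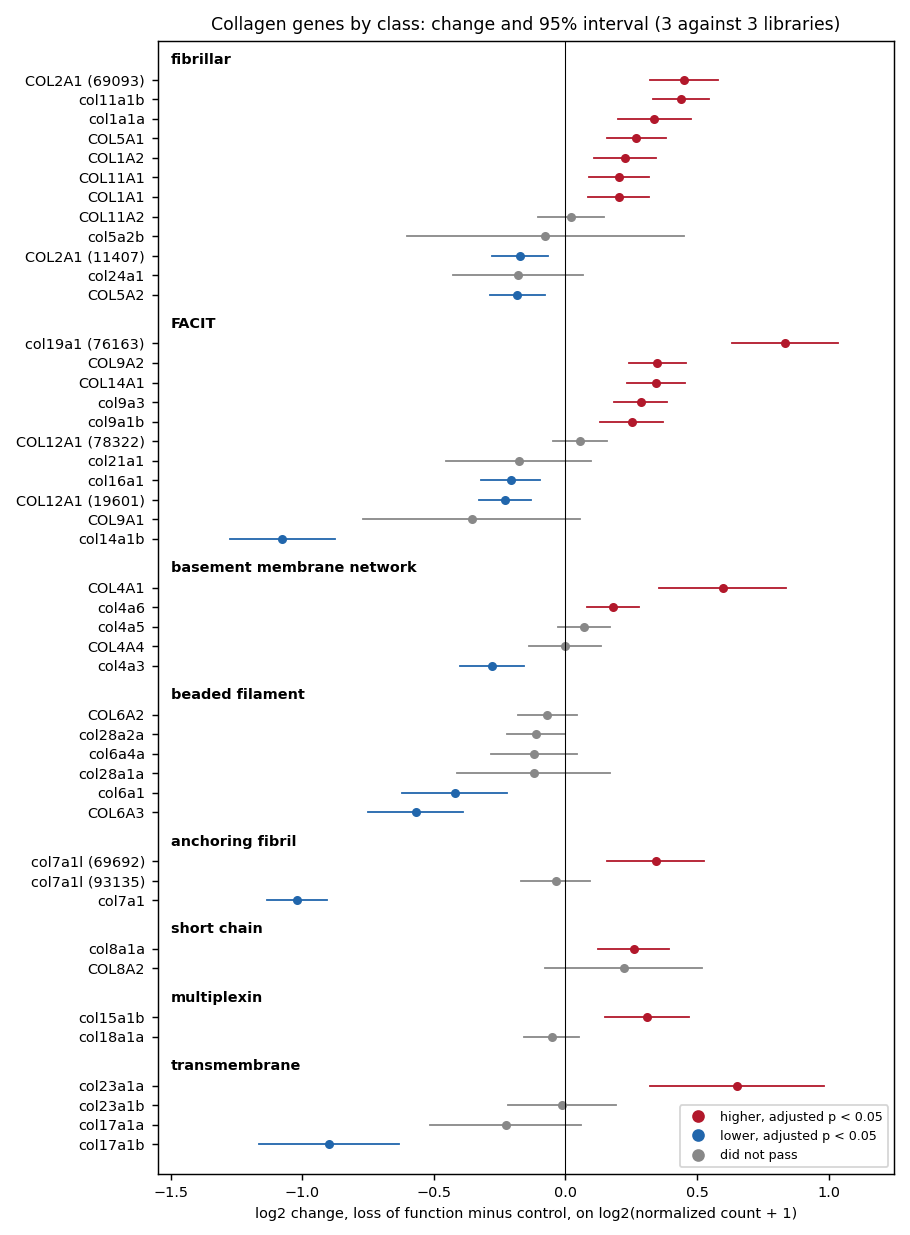
Log2 change (x axis, loss of function minus control) and 95% interval of the 45 collagen genes tested, grouped by class on the y axis, with red for higher, blue for lower and gray for genes that did not pass. Numbers in brackets are the last digits of the gene ID. The fibrillar class holds 7 increases and 2 decreases among 12 genes tested, and the FACIT class 5 and 3 among 11. The beaded filament class holds 0 increases and 2 decreases among 6. Of all genes tested, 21.9% were higher and 20.0% lower.

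The size of the increases depended on how libraries were scaled. The 50 genes summed to normalized counts of 504598, 467619 and 489861 in the controls and to 572932, 567113 and 560572 in loss of function libraries, groups that did not overlap (exact permutation test, two-sided, p = 0.10, the smallest that 3 against 3 libraries can give). Yet the total of all genes rose as well, from a mean of 39886165 to 43920917, or 0.14 on the log2 scale. As a share of all gene values, collagen genes took 1.30%, 1.17% and 1.20% in the controls and 1.28%, 1.29% and 1.30% in loss of function, where the groups overlapped (exact p = 0.40). With the 10 most abundant genes left out of the total, the shares were 1.47%, 1.32% and 1.36% against 1.48%, 1.49% and 1.48% and did not overlap (exact p = 0.10). Type I took 0.451% ± 0.0224 and 0.497% ± 0.00271 of all gene values (SD, n = 3), and types II, IX and XI together took 0.444% ± 0.0298 and 0.498% ± 0.00383. Neither pair of groups overlapped. Other shares fell without overlap: type VI (mean 0.0124% to 0.00948%), types VII and XVII together (0.0184% to 0.0123%) and types XII and XIV together (0.0317% to 0.0290%). Because the total rose, a share can fall while counts do not. Of types XII and XIV, COL14A1 rose while col14a1b and 1 COL12A1 gene fell. Their lower share therefore does not show that their summed counts fell. The shares of type IV and of type V overlapped between the groups. When libraries were scaled to their total reads instead, the median of all genes moved from 0.00048 to -0.14 and the collagen calls from 18 higher and 10 lower to 9 higher and 16 lower. The 9 increases not called on that scale were COL1A1, COL1A2, COL5A1, COL11A1, col9a1b, col4a6, col15a1b, col8a1a and 1 col7a1l gene. The 6 decreases called only on that scale and not in the main test were COL9A1, COL6A2, col6a4a, col28a2a, col18a1a and the other col7a1l gene. The direction of a difference between 2 collagen genes does not depend on this scaling. In bulk trunks fewer cells of a type and less RNA per cell cannot be told apart.

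Type I collagen, the main fiber of skin and connective tissue, rose in all 3 of its genes. It held the most abundant member by reads, col1a1a (ENSDARG00000012405), with normalized counts of 95093, 88016 and 95808 in the controls and 120509, 117243 and 114632 in loss of function. Each loss of function library lay above each control, by 26.3% in the mean (log2 change 0.34, SE 0.07, limma adjusted p = 5.47e-04). Its copy COL1A1 (ENSDARG00000035809) had 39723, 37020.0 and 39646 against 45545, 44236 and 44012 (log2 change 0.20, SE 0.06, adjusted p = 0.00726). Without loss of function replicate 1 this copy no longer passed (adjusted p = 0.0565). The partner chain COL1A2 (ENSDARG00000020007) had 49144, 46754 and 48072 against 56900.0, 56527 and 54975 (log2 change 0.23, SE 0.06, adjusted p = 0.00349). It was not called after quantile normalization (log2 change 0.03, adjusted p = 0.608).

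Type V collagen, which starts type I fibers and sets their width, divided between its chains. COL5A1 (ENSDARG00000012593) had normalized counts of 16261, 14496 and 15892 in the controls and 18522, 18791 and 18864 in loss of function, and it rose (log2 change 0.27, SE 0.05, limma adjusted p = 6.11e-04). COL5A2 (ENSDARG00000031678) went the other way, from 13526, 12606 and 13479.6 to 11342, 11587 and 11958 (log2 change -0.18, SE 0.05, adjusted p = 0.00683), and was not called without loss of function replicate 1 (adjusted p = 0.0549) or without the variance trend. Neither gene's groups overlapped. The copy col5a2b (ENSDARG00000024847) was low, at 49.4, 54.3 and 26.4 against 36.9, 37.6 and 43.5 with overlap, and its interval for the log2 change ran from -0.60 to 0.45.

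Collagens of cartilage and the notochord sheath, types II, IX and XI, gave 6 of 9 genes higher and 1 lower (all genes: 21.9% and 20.0%). Type II is the main fiber of both tissues, type XI lies within the fiber and type IX coats it. One gene named COL2A1 (ENSDARG00000069093) had normalized counts of 73923, 68294 and 70666 in the controls and 98077, 97107 and 95809 in loss of function. This was the largest increase among the 8 most read members, 36.7% in the mean (log2 change 0.45, SE 0.06, limma adjusted p = 2.11e-05). The other COL2A1 gene (ENSDARG00000011407) fell from 10858, 10480.3 and 9808 to 9232, 9340.3 and 9029 (log2 change -0.17, SE 0.05, adjusted p = 0.0104). Its call was lost without the variance trend (adjusted p = 0.0736) and without loss of function replicate 3.

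Of type XI, col11a1b (ENSDARG00000009014) rose from 4514, 4078 and 4327 to 5823, 5727 and 5949 (log2 change 0.44, SE 0.05, limma adjusted p = 3.86e-06). COL11A1 (ENSDARG00000026165), with 31547, 28784 and 30075 against 34738, 34709 and 34558, had a log2 change of 0.20 (SE 0.05, adjusted p = 0.00572). After quantile normalization it was 0.04 (adjusted p = 0.531). COL11A2 (ENSDARG00000012422) had 11325, 9874 and 9436 against 10198, 10596 and 10191, overlapping groups with a log2 change of 0.02 (95% interval -0.11 to 0.15), which turned negative under other scalings. All 3 abundant type IX chains rose. COL9A2 (ENSDARG00000024492) had a log2 change of 0.35, col9a3 (ENSDARG00000037845) 0.29 and col9a1b (ENSDARG00000031483) 0.25. The last had 25679, 22508 and 24226 in the controls and 29110.1, 28336 and 28613 in loss of function (adjusted p = 0.00172, and 0.105 after quantile normalization). The second type IX alpha 1 gene, COL9A1 (ENSDARG00000073699), was read far less. It had 44.1, 54.3 and 49.7 against 37.9, 42.6 and 34.6, without passing the test (log2 change -0.36, 95% interval -0.77 to 0.06).

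In the same libraries 3 of 7 notochord markers other than collagens were higher and 1 was lower, 57.1% called against 41.9% of all genes. Their median log2 change was 0.11, with a summed level of 18733 to 19689 in the controls and 24484 to 25178 in loss of function. Those that rose were cmn (0.58), ntd5 (0.33) and the transcription factor gene noto (0.72), and epyc fell (-0.39). TBXT, the transcription factor that defines the early notochord, was at 41.1 ± 4.27 and 36.1 ± 11.4 normalized counts (SD, n = 3) and did not pass. The part of these markers in the collagen changes was not tested. Also in the notochord, col8a1a (ENSDARG00000077403) encodes a short chain collagen whose loss distorts the zebrafish notochord. It rose from 3018, 2450.1 and 2843 to 3339, 3335 and 3236 (log2 change 0.26, SE 0.06, limma adjusted p = 0.00366), and was not called without the variance trend (adjusted p = 0.0688). COL8A2 (ENSDARG00000060893) had a log2 change of 0.22 with overlapping groups (95% interval -0.08 to 0.52).

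The largest decreases were in collagens that join the epidermis to the tissue beneath it and in a FACIT. The anchoring fibril gene col7a1 (ENSDARG00000021720), whose human counterpart is mutated in a blistering disease, had normalized counts of 4587, 4296 and 4121 in the controls and 2036, 2174 and 2194 in loss of function. Every loss of function value was below every control value, by 50.8% in the mean (log2 change -1.02, SE 0.05, limma adjusted p = 7.52e-10). The 2 genes named col7a1l did not follow it. One (ENSDARG00000069692) had 1901, 1386 and 1457 against 1879, 2009.6 and 2079, groups that overlapped through control replicate 1, and it rose (log2 change 0.34, SE 0.09, adjusted p = 0.00455). It did not pass with DESeq2 (adjusted p = 0.0850) or without the variance trend. For the other (ENSDARG00000093135), with overlapping values of 1112, 999.6 and 992 against 985, 1009.8 and 1026, the log2 change was -0.04 (95% interval -0.17 to 0.09).

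Type XVII collagen spans the membrane of basal epidermal cells at hemidesmosomes. Its gene col17a1b (ENSDARG00000079011) fell from 186, 199 and 160.4 normalized counts to 92.7, 94.0 and 104 (log2 change -0.90, SE 0.13, limma adjusted p = 3.08e-05). The copy col17a1a (ENSDARG00000069415) had 169, 222 and 151 against 139.6, 164 and 154, overlapping groups with a log2 change of -0.23 (95% interval -0.52 to 0.06). It passed only without control replicate 3 among the libraries left out in turn. Another transmembrane collagen, col23a1a (ENSDARG00000095339), rose from 77.6, 65.1 and 62.9 to 111, 93.1 and 122 (log2 change 0.65, SE 0.16, adjusted p = 0.00301). Its copy col23a1b (ENSDARG00000089078) had 487, 504 and 409 against 445, 417 and 528 and did not pass (log2 change -0.01, 95% interval -0.22 to 0.19).

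Of 14 epidermal markers other than collagens, 5 were higher, 1 was lower and 8 did not pass, a share called of 42.9% against 41.9% of all genes. When scaled to total reads 1 was higher and 2 were lower. Their summed level was 780731 to 883596 in the controls and 934393 to 981484 in loss of function, most of it from krt4, which did not pass (log2 change 0.22, limma adjusted p = 0.0877). It was called higher with edgeR (adjusted p = 0.0227), with DESeq2 (adjusted p = 2.88e-04), without the variance trend and without control replicate 3, and under no other alternative. The keratin gene krt8 (0.46), the transcription factor gene GRHL1 (0.33) and the basement membrane gene fras1 (0.19) rose, and the tight junction gene cldnb fell (-0.57). The basal cell factor gene TP63 missed the threshold (log2 change -0.05, limma adjusted p = 0.449), as did epcam (0.0017, adjusted p = 0.985). The part of epidermal cells in the changes of types VII and XVII was not tested.

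**Figure D2:**
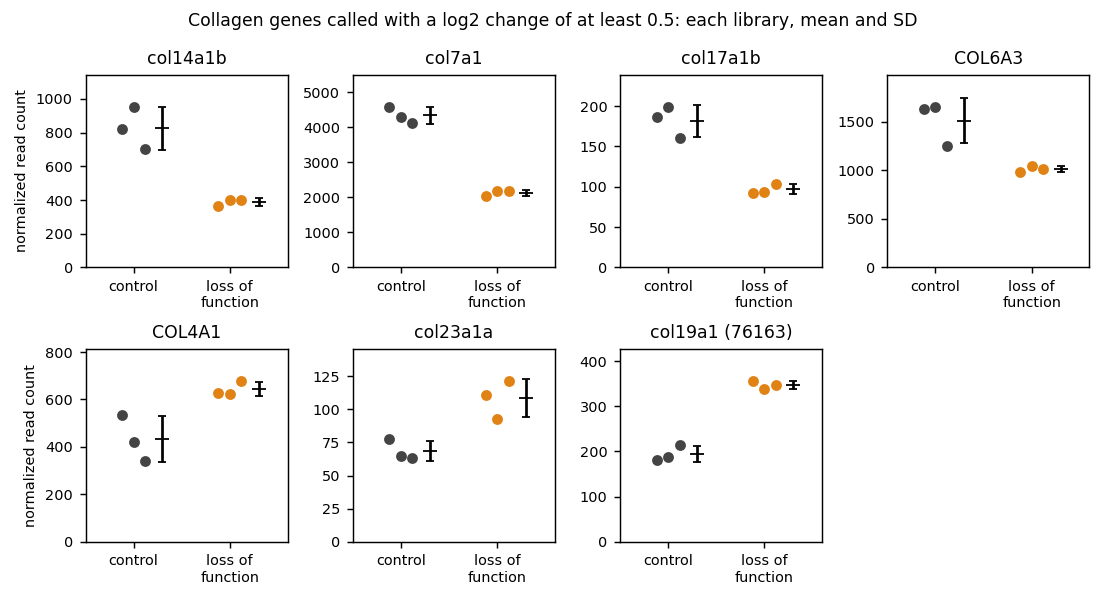
Normalized read count (y axis, from 0) in each of the 3 control (gray) and 3 loss of function (orange) libraries for the 7 collagen genes that passed the test with a log2 change of at least 0.5 in either direction, with mean and SD beside the points. The groups overlap for none of these 7 genes, and COL6A3 and COL4A1 show the wide control spread.

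FACIT collagens gave 5 of 11 tested genes higher and 3 lower (all genes: 21.9% and 20.0%). Those other than type IX gave 2 genes higher and 3 lower. Type XIV binds type I fibers, and its 2 genes went opposite ways. The copy col14a1b (ENSDARG00000076623) fell from normalized counts of 823, 954 and 701 to 362, 402 and 402, the largest decrease of any collagen gene (log2 change -1.08, SE 0.09, limma adjusted p = 2.11e-07). COL14A1 (ENSDARG00000005762), with more reads, rose from 4114, 3739.8 and 4216 to 5119, 5055 and 5141 (log2 change 0.35, SE 0.05, adjusted p = 5.73e-05). One type XII gene, COL12A1 (ENSDARG00000019601), fell from 4531, 4375 and 4427 to 3809, 3845 and 3707 (log2 change -0.23, SE 0.05, adjusted p = 7.72e-04). The second COL12A1 gene (ENSDARG00000078322), with 3494, 3270.1 and 3247 against 3453, 3459 and 3484, had overlapping groups and a log2 change of 0.06, or -0.08 when scaled to total reads. The largest increase of any collagen gene was in col19a1 (ENSDARG00000076163), from 181, 188 and 215 to 356, 339 and 347 (log2 change 0.83, SE 0.10, adjusted p = 4.03e-06). For col16a1 (ENSDARG00000009194) the log2 change was -0.21 (adjusted p = 0.00500, and 0.0547 without the variance trend). The groups of col21a1 overlapped, and it did not pass (-0.18, adjusted p = 0.293).

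Type VI collagen is built from 3 different chains, and loss of any of them causes muscle disease in people. COL6A3 (ENSDARG00000077139) fell from normalized counts of 1638, 1658 and 1248 to 981, 1041 and 1015 (log2 change -0.57, SE 0.08, limma adjusted p = 5.21e-05). The chain col6a1 (ENSDARG00000074908) fell from 493, 389 and 392 to 311, 326 and 308 (log2 change -0.42, SE 0.09, adjusted p = 0.00188). In both genes 1 control library stood apart from the other 2, replicate 3 for COL6A3 and replicate 1 for col6a1, and all controls were above all loss of function libraries. Without those libraries the log2 changes were -0.70 and -0.31 and still passed. COL6A2 (ENSDARG00000061436), with 2195, 2327 and 2113 against 2142, 2117 and 2061, overlapped and did not pass (log2 change -0.07, 95% interval -0.18 to 0.04), and neither did col6a4a (-0.12). The related col28a2a (ENSDARG00000076321), among the 8 most read members, had 25539, 23574 and 25267 against 22829, 23305 and 22688. Its groups did not overlap, yet it missed the threshold (log2 change -0.11, adjusted p = 0.0949). It was called lower after quantile normalization (-0.23, adjusted p = 0.00122) and when scaled to total reads (-0.25, adjusted p = 7.55e-04). Without control replicate 2 it was called lower too (adjusted p = 0.0353). COL6A2 and col6a4a were also called lower when scaled to total reads.

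Markers of the sclerotome, fibroblasts and tendon progenitors gave 6 of 14 lower and 1 higher, 50.0% called against 41.9% of all genes. Their median log2 change was -0.31, with a summed level of 6528 to 7019.9 in the controls and 6062 to 6258 in loss of function. The mesenchyme gene PRRX1 (ENSDARG00000042027) had a log2 change of -0.73 and the sclerotome genes NKX3-2 and PAX1 (ENSDARG00000008203) -0.63 and -0.72. The tendon gene TNMD was at 1.63 ± 0.647 normalized counts in controls (SD, n = 3) and was not tested. The transcription factors twist1a, twist1b, SCX, FOXC1 and foxc1b are in this list and in that of collagen regulators. What part these cells have in the changes of types VI and XIV was not tested.

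Basement membrane collagens gave 2 of 5 genes higher and 1 lower (all genes: 21.9% and 20.0%). COL4A1 (ENSDARG00000055009), a chain of the sheet found in every basement membrane, rose from normalized counts of 534, 418 and 342 to 629, 623 and 678 (log2 change 0.60, SE 0.11, limma adjusted p = 4.94e-04). Its controls were spread widely, yet all lay below the loss of function libraries. Of the other type IV chains, col4a6 (ENSDARG00000052061) rose from 9029.6, 8902 and 9437 to 10287, 10299.5 and 10463. Its log2 change was 0.18 (SE 0.05, limma adjusted p = 0.00483), with no call after quantile normalization (adjusted p = 0.135). The chain col4a5 (ENSDARG00000052063) did not pass (log2 change 0.07, 95% interval -0.03 to 0.17). The chain col4a3 (ENSDARG00000003395) fell from 1171, 1091 and 1134 to 916, 938 and 939.8 (log2 change -0.28, SE 0.06, adjusted p = 8.97e-04). COL4A4 (ENSDARG00000002831), which joins col4a3 in 1 molecule, had 1235 ± 92.2 and 1232 ± 58.7 (SD, n = 3). Of the multiplexins, collagens that also sit in basement membranes, col15a1b (ENSDARG00000061848) rose from 469.8, 539 and 496 to 601, 660.3 and 603 (log2 change 0.31, SE 0.07, adjusted p = 0.00317). The abundant col18a1a (ENSDARG00000036558), with 17874, 16788 and 17979.6 against 16932, 17099.6 and 16691, overlapped and did not pass (log2 change -0.05, 95% interval -0.16 to 0.05). It was called lower after quantile normalization (-0.20, adjusted p = 0.00182) and when scaled to total reads (-0.19, adjusted p = 0.00313).

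Copies of the same collagen gene were compared within each library, where scaling between libraries cancels. The log2 ratio of COL14A1 to col14a1b was 2.32, 1.97 and 2.59 in the controls and 3.82, 3.65 and 3.67 in loss of function, a shift of 1.42. For col7a1 over the first col7a1l gene it went from 1.27, 1.63 and 1.50 to 0.12, 0.11 and 0.08, a shift of -1.36. For the lower COL2A1 gene over the higher it went from -2.77, -2.70 and -2.85 to -3.41, -3.38 and -3.41, a shift of -0.62. The type I copies, which both rose, differed by less, with the ratio of COL1A1 to col1a1a at -1.26 ± 0.012 and -1.40 ± 0.014 (SD, n = 3). In each of these 4 pairs the groups did not overlap (exact permutation test, p = 0.10, the smallest possible, and 0.127 adjusted over 28 pairs of copies and chains). Of the 12 pairs of copies all but 1, the COL2A1 pair, were added after the values had been seen. No source used here states how reads shared by near-identical copies were assigned, so values of single copies are uncertain.

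**Figure D3:**
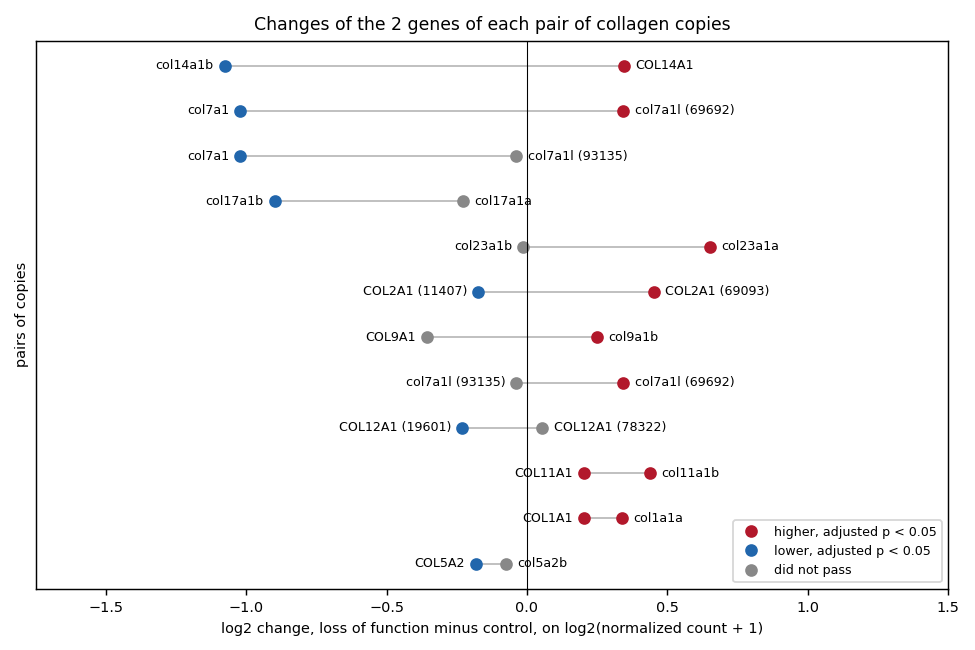
Log2 change (x axis, loss of function minus control) of both genes in each of 12 pairs of collagen copies, joined by a line, with red for higher, blue for lower and gray for genes that did not pass. Numbers in brackets are the last digits of the gene ID. The pairs of COL14A1 with col14a1b, of col7a1 with 1 of the col7a1l genes and of the COL2A1 genes hold 1 gene that rose and 1 that fell.

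Of 16 pairs of chains that assemble into the same molecule, 11 had ratios that did not overlap between the groups. Several pairs share a gene, such as COL9A2 or COL11A2, so the 11 are not independent of each other. Ratios of unrelated genes were not computed, so this count has no background share. Of all single genes tested, 52.1% did not overlap. The log2 ratio of COL5A1 to COL5A2 was 0.27, 0.20 and 0.24 in the controls and 0.71, 0.70 and 0.66 in loss of function, a shift of 0.45 in which every library of a group lay on the same side. The ratio of col11a1b to COL11A2 rose by 0.42, from -1.24 ± 0.105 to -0.82 ± 0.057 (SD, n = 3). For col6a1 over COL6A2 it went from -2.39 ± 0.216 to -2.74 ± 0.042, and for col4a3 over COL4A4, a pair added later, from -0.12 ± 0.068 to -0.40 ± 0.088. The low COL9A1 fell behind its partners, with shifts of -0.71 against COL9A2 and -0.64 against col9a3. Smaller shifts were found for COL11A1 over COL11A2 (0.18), col1a1a over COL1A2 (0.11), col4a5 over col4a6 (-0.11), col9a1b over COL9A2 (-0.10) and COL9A2 over col9a3 (0.06). In all of these the groups did not overlap, at exact p = 0.10 and adjusted p = 0.127. Ratios of COL1A1 to COL1A2 (-0.31 ± 0.029 and -0.33 ± 0.019), col9a1b to col9a3 (1.04 ± 0.066 and 1.01 ± 0.007) and col6a1 to COL6A3 (-1.83 ± 0.227 and -1.68 ± 0.033) overlapped between the groups, as did those of COL5A1 to col5a2b and col8a1a to COL8A2.

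**Figure D4:**
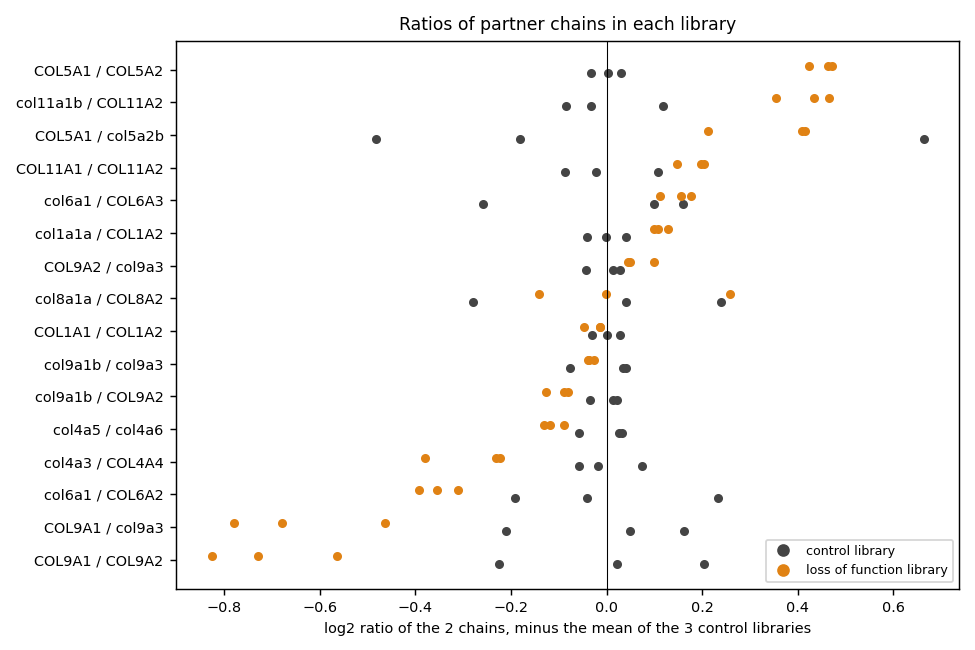
Log2 ratio of 2 collagen chains in each library (x axis, minus the mean of the 3 controls) for 16 pairs of partner chains, with controls in gray and loss of function in orange. The ratios of COL5A1 to COL5A2 and of col11a1b to COL11A2 lie to the right in all loss of function libraries, and those of col6a1 to COL6A2 and col4a3 to COL4A4 to the left.

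The 5 members too low to test had at most 5 reads in any library. They were COL8A1 (ENSDARG00000003533), COL10A1 (ENSDARG00000054753), col18a1b, col28a1b and a second col19a1 gene (ENSDARG00000096073). COL10A1, a marker of bone and hypertrophic cartilage, had 0, 1 and 0 reads in the controls and 1 in each loss of function library.

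Genes that modify and fold procollagen in the endoplasmic reticulum gave 9 of 19 tested higher and 2 lower, with a median log2 change of 0.22. Of all genes tested 21.9% were higher and 20.0% lower, 41.9% in all, against 57.9% called in this list, 44.4% in the list for export and 43.8% in that for processing and crosslinking. The prolyl isomerase genes FKBP10 (log2 change 0.48, limma adjusted p = 4.14e-06), FKBP7 (0.46, 1.15e-05) and PPIB (0.40, 2.14e-05) rose. So did one copy of the collagen chaperone gene SERPINH1 (ENSDARG00000075954), from 5085, 4655 and 5320 normalized counts to 6770, 6444 and 6575 (0.40, adjusted p = 2.07e-05). The other copy (ENSDARG00000019949), with 8747 ± 765 and 9094 ± 136 (SD, n = 3), did not pass (0.06, adjusted p = 0.427). The isomerase gene FKBP14 (-0.36) and the prolyl hydroxylase gene P4HA2 (-0.19) fell. P4HA2 was not called without loss of function replicate 1 or without replicate 3. Of 9 genes for the export of procollagen, 3 rose and 1 fell (median 0.14). The coat gene SEC13 (0.45), the exit site gene TFG (0.31) and the cargo receptor gene mia3 (0.17) rose, and the coat gene SEC23B (-0.24) fell. The call of mia3 was lost after quantile normalization, when scaled to total reads and without the variance trend. It was also lost without loss of function replicate 1 or without replicate 2.

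Procollagen proteinases and lysyl oxidases, which trim and crosslink the fibers, gave 5 of 16 higher and 2 lower (median 0.22). The proteinase enhancer gene pcolcea (0.53), the proteinase gene BMP1 (ENSDARG00000028071, 0.34) and the lysyl oxidase genes LOXL1 (0.36) and LOXL2 (0.30) rose. The second BMP1 gene (ENSDARG00000028053) fell from 47.6, 64.1 and 59.9 normalized counts to 22.9, 33.7 and 27.9, by 50.8% in the mean (limma adjusted p = 0.00133). Of 24 matrix proteins that bind collagen, 8 rose and 4 fell (median 0.13), 50.0% against 41.9% of all genes. The 8 were 4 when scaled to total reads or without the variance trend, and 5 without loss of function replicate 1. The small proteoglycan genes OGN (ENSDARG00000044132, 0.53), LUM (0.50) and DCN (0.32) rose, while BGN (ENSDARG00000002945, -0.63) and epyc (-0.39) fell. BGN was not called without control replicate 1 or without loss of function replicate 1. The cartilage matrix gene MATN3 (ENSDARG00000069245) fell from 313, 395 and 198 to 109.7, 112 and 129 (-1.31, adjusted p = 2.15e-05), and its copy (ENSDARG00000069265) rose (0.36).

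Collagen receptors gave 1 of 9 lower and 0 higher, 11.1% against 41.9% of all genes. The integrin gene ITGA10, whose product binds collagen in mammalian cartilage, fell from 1520.4, 1525 and 1273 to 956, 890 and 989 (log2 change -0.60, limma adjusted p = 5.93e-06). With edgeR 3 receptor genes were lower, adding DDR1 and DDR2, receptor kinases that bind fibrillar collagen, and without control replicate 3 there were 4. Metalloproteinases and their inhibitors gave 4 of 16 higher and 2 lower (median 0.07), 37.5% against 41.9% of all genes, with 2 higher when scaled to total reads. Without any 1 control library 1 was lower, since mmp13a then fell below the filter. The inhibitor gene TIMP2 (ENSDARG00000075261) rose from 513, 413 and 589 to 1072, 1128 and 1163 (1.16, adjusted p = 1.06e-07) and the gelatinase gene MMP2 rose by 0.46. The other TIMP2 gene (ENSDARG00000061226), read at a similar level, did not pass (0.09, adjusted p = 0.326). The collagenase gene mmp13a (-2.53) and the gelatinase gene MMP9 (-0.66) fell, and control replicate 3 held the highest value of both. Of 16 transcription factors known to act on collagen genes, 8 fell and 2 rose (median -0.19), 62.5% against 41.9% of all genes. The 8 were 4 without loss of function replicate 2, without replicate 3, or without the variance trend. The early response gene egr1 (-1.72) and SMAD3 (ENSDARG00000010207, -0.67) fell, as did both SOX9 genes, activators of type II collagen in cartilage (ENSDARG00000003293, -0.28, and ENSDARG00000043923, -0.15). The other SMAD3 gene (ENSDARG00000036096) did not pass (-0.13, adjusted p = 0.411). Neither SOX9 gene passed when any 1 loss of function library was left out. The bone factor gene SP7 (0.69) and SOX6 (0.34), a partner of SOX9, rose.

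**Figure D5:**
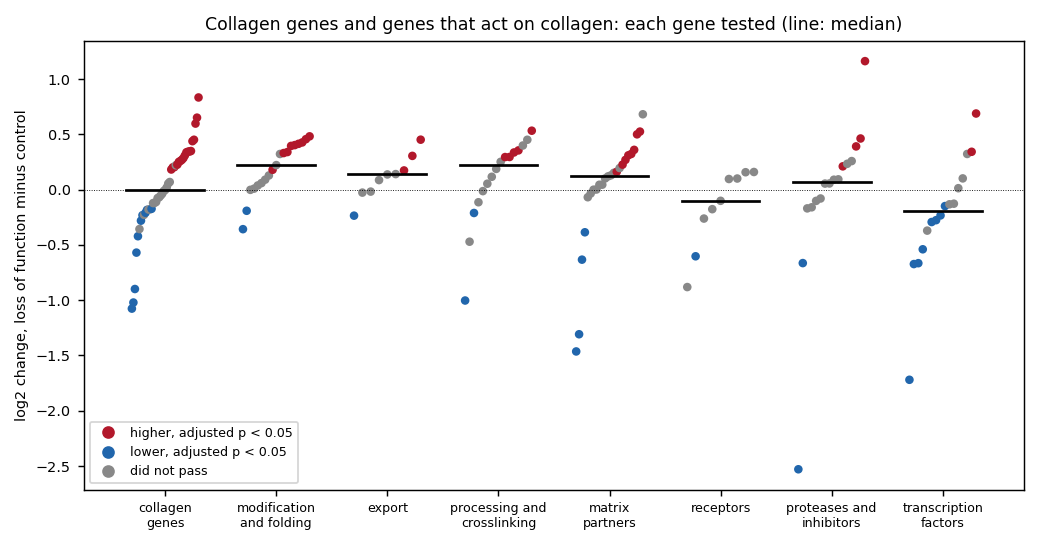
Log2 change (y axis, loss of function minus control, on log2 of the normalized count plus 1) of each tested gene among collagens and 7 lists of genes that act on or bind collagen, with the median as a line, red for higher, blue for lower and gray for genes that did not pass. Medians lie above 0 for modification and folding (0.22) and for processing and crosslinking (0.22), and below 0 for transcription factors (-0.19).

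Markers of other cells moved in the same libraries. Of 14 primitive red blood cell markers tested, 13 rose and 1 fell, with a summed level of 4247 to 10364 in the controls and 31825 to 32497 in loss of function. The marker HBE1 (ENSDARG00000097238) passed the filter only through the loss of function libraries. Endothelial markers, from cells that also make type IV collagen, gave 2 of 8 higher and 3 lower, with summed levels of 2199 to 2317 and 1888 to 2032. Skeletal muscle markers gave 2 of 10 higher and 4 lower, and their summed levels overlapped. The 2 were 0 under total-read scaling or quantile normalization, 4 without control replicate 1 and 1 without control replicate 2 or any 1 loss of function library. The shares called were 100% for red blood cell, 62.5% for endothelial and 60.0% for muscle markers, against 41.9% of all genes. The part of these cells in the collagen changes was not tested.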

How the data were processed

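RNA of 6 trunk libraries was oligo(dT)-selected and made into TruSeq libraries that keep no strand, per the labels, so reads of overlapping antisense genes cannot be told apart. The deposited gene values are a signal: read counts divided by 1 size factor per library (0.897 to 1.13 here). The submitters' processing notes list DESeq 1.8.3, HTSeq 0.5.3, SAMtools, STAR 2.4.0j and Bowtie 0.12.9 and build Zv9, with no roles. All values (100%) were whole multiples of 1 read within 0.001 read, so reads were recovered. In 2 loss of function libraries 1 read is worth nearly 1 unit, so this shows less there. Symbols matched 18555 of 24789 IDs (74.9%). Exon tables and sequences were not used here.

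Genes that reached 10 in 3 or more of the 6 libraries were tested with limma 3.58.1 (R 4.3.3; eBayes with trend) on log2(value + 1), which understates changes of low genes, with p-values two-sided and adjusted by Benjamini-Hochberg over all genes tested. Levels are deposited normalized counts. Single values were compared by exact permutation (SciPy 1.17.1). Alternatives changed the pseudocount, filter, scaling, trend and libraries, or used edgeR 4.0.16 and DESeq2 1.42.0 on recovered reads. The fit was tried on simulated data. Groups came from sample titles. By rule, per-library values were given for members called with a log2 change of at least 0.5, the 8 most read, and copies of a called gene. Those of other members, such as partner chains, were added after their values were seen. Up to 4 called genes were named per list, others after their values were seen. Members and lists were chosen with earlier results of these data known. List genes were matched by human name with or without a final a or b.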

Additional observations from a re-analysis of the deposited data

How the results depend on the processing

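Of the 28 collagen calls, 16 held under all 17 alternatives, and 0 changed sign under any. Scaling to total reads, added after the data were seen, gave 2147 genes higher and 6225 lower over all genes, against 4143 and 3792, and 9 and 16 collagen genes. It moved the collagen median to -0.14 and all genes by a like amount. The same scaling reversed COL12A1 (ENSDARG00000078322, -0.084), col4a5 (-0.070) and COL11A2 (-0.12), and quantile normalization reversed col4a5 (-0.049), COL11A2 (-0.094) and col5a2b (0.018). None of these 4 had passed. The cause was not tested. Leaving out each library in turn gave 17 to 19 collagen genes higher and 9 to 12 lower, and a collagen median of -0.034 to 0.048. It also gave ranges that cross 0 for COL4A4 (-0.066 to 0.031), col23a1b (-0.11 to 0.060), col7a1l (ENSDARG00000093135, -0.067 to 0.016), col5a2b (-0.39 to 0.12), COL11A2 (-0.034 to 0.097) and the ratio of col8a1a to COL8A2 (-0.10 to 0.16). With the variance trend off, 5 collagen calls were lost. The call of qkia could not be repeated without a control library or with a mean of at least 50, where it fell below the filter. Same-numbered libraries did not deviate together (r = -0.075, 0.0079 and -0.022), and the replicate block left 18 collagen genes higher and 10 lower (4055 and 3759 of all genes). Genes under 50 normalized counts, such as COL9A1 and col5a2b, had wide intervals. That of col5a2b (-0.60 to 0.45) held both the increase of COL5A1 (0.27) and the decrease of COL5A2 (-0.18). That of COL9A1 (-0.77 to 0.06) held 0 but lay below the changes of COL9A2 (0.35), col9a3 (0.29) and col9a1b (0.25).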
